A study of Mus musculus with 6 samples.

Results

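The receptor genes for leukotrienes, complement anaphylatoxins, formyl peptides, platelet-activating factor and histamine were followed in cultured mouse eosinophils. The 10 genes were Ltb4r1, Ltb4r2, Cysltr1, Cysltr2, C5ar1, C3ar1, Fpr1, Fpr2, Ptafr and Hrh4, taken by symbol from the 23283 gene symbols of the transcript tables. The cells were small intestinal eosinophils of BALB/c mice, and the series gives their source as the lamina propria of wild-type animals. They were cultured for 4 hours with GM-CSF at 10 ng/ml (3 libraries) or without it (3 libraries, called untreated). How the eosinophils were isolated and whether the cultures came from separate or pooled animals is not stated in the labels, so a p-value here measures the variation among these cultures and no more.

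All 10 genes encode G protein-coupled receptors of the rhodopsin type that sense inflammatory mediators. Leukotriene B4 binds the high-affinity receptor encoded by Ltb4r1 and the lower-affinity receptor encoded by Ltb4r2, which also binds the fatty acid 12-HHT. The cysteinyl leukotrienes bind the products of Cysltr1 and Cysltr2, the anaphylatoxins those of C3ar1 and C5ar1, and N-formylated bacterial or mitochondrial peptides those of Fpr1 and Fpr2. Receptors of this kind couple mainly to Gi, Gq or both, and in granulocytes they direct migration, adhesion and degranulation.

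The libraries rested on between 0.820 and 1.32 Gb of mapped sequence with GM-CSF and between 0.917 and 0.974 Gb in untreated cultures. The level is FPKM, fragments scaled to transcript length and to the mapped fragments of the library, so levels of different genes can be compared. Read numbers given below are approximate and were recovered from the deposited coverage. The response to the cytokine was visible in the feedback inhibitor gene Cish, at 156.7 ± 3.41 FPKM with GM-CSF and 17.9 ± 2.55 FPKM in untreated cultures (SD, n = 3 each), and in the receptor beta chain gene Csf2rb, at 1098 ± 23.7 FPKM with GM-CSF and 600.4 ± 34.0 FPKM in untreated cultures. All 6 eosinophil markers listed (Siglecf under its older symbol Siglec5, Ccr3, Epx, Prg2, Il5ra and Alox15) were above 1 FPKM on average. The lowest were Epx, at 4.27 FPKM with GM-CSF and 6.62 FPKM in untreated cultures, and Prg2, at 8.93 and 8.85 FPKM.

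The receptors formed a high and a low set by level. Ptafr stood at rank 156 of 23283 symbols with GM-CSF and at rank 161 in untreated cultures. With GM-CSF, Ltb4r1 stood at rank 892, C3ar1 at 3611, Ltb4r2 at 4504 and Fpr2 at 5068, and in untreated cultures Ltb4r1 stood at 1016, C3ar1 at 4979, Fpr2 at 6768 and Ltb4r2 at 11528. Ptafr made up 75.6% ± 1.33 of the summed FPKM of the 10 genes with GM-CSF and 81.1% ± 1.04 in untreated cultures (SD, n = 3 each; p = 0.1 by exact permutation, two-sided, the minimum for this design). The sum itself was 540.8 ± 18.4 FPKM with GM-CSF and 509.7 ± 20.2 FPKM in untreated cultures (SD, n = 3 each; p = 0.2 by exact permutation, two-sided).

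In untreated cultures the order of the means was Ptafr, Ltb4r1, C3ar1 and Fpr2, each above the next without overlap of single libraries. Below them came C5ar1, Fpr1, Ltb4r2, Hrh4, Cysltr2 and Cysltr1, all under 1 FPKM on average, and from C5ar1 down each gene overlapped the next. With GM-CSF, Ltb4r2 moved into the high set, where its range overlapped that of Fpr2 below it and not that of C3ar1 above it. The 5 genes left in the low set each overlapped the next in order, which was Cysltr1, Fpr1, Hrh4, C5ar1 and Cysltr2.

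**Figure D1:**
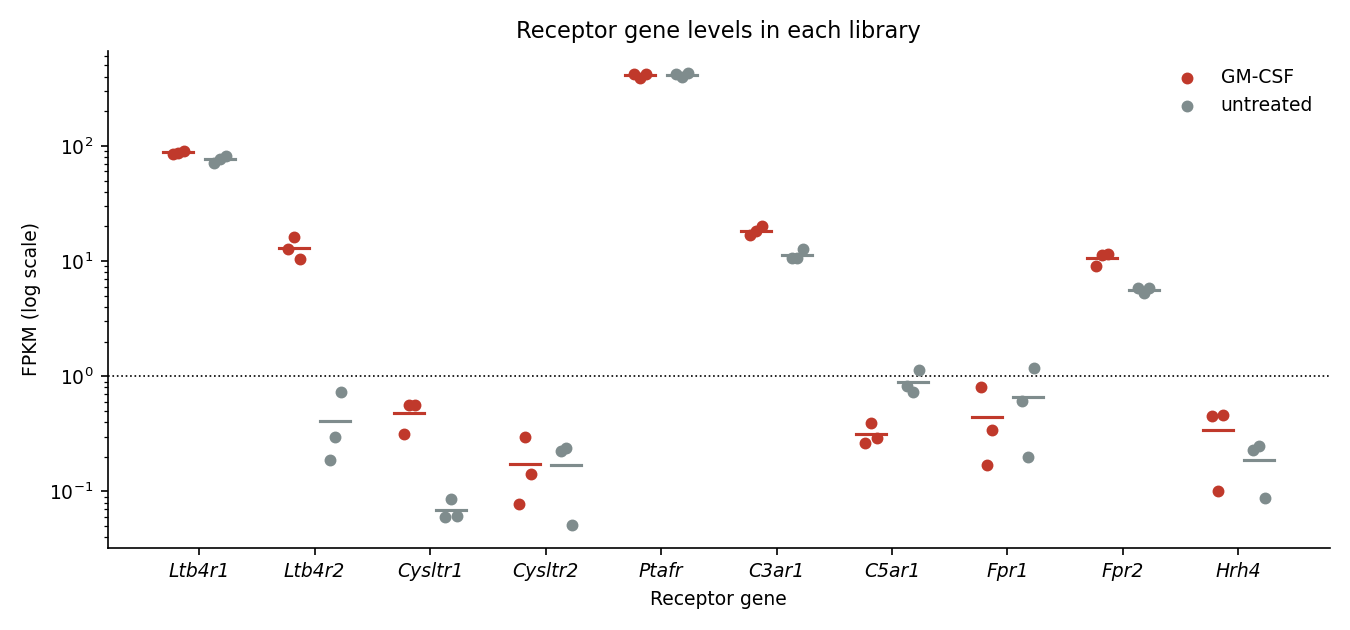
FPKM of the 10 receptor genes on a log axis, with 1 point per library, GM-CSF libraries in red and untreated libraries in grey. Short lines are group means and the dotted line marks 1 FPKM; Ltb4r2 lies between 10.5 and 16.1 FPKM with GM-CSF and under 0.8 FPKM in each untreated library.

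The low-affinity leukotriene B4 receptor gene Ltb4r2 changed most. It had 12.8, 16.1 and 10.5 FPKM in GM-CSF replicates 1 to 3, against 0.186, 0.299 and 0.731 FPKM in untreated replicates 1 to 3. Every GM-CSF library was above every untreated library, and the lowest of them stood far above the highest untreated one. About 393, 732 and 296 reads lay behind the GM-CSF values, against about 6, 10 and 23 reads behind the untreated ones. The ratio of the means was 32.4, with 13.1 ± 2.81 FPKM with GM-CSF and 0.405 ± 0.287 FPKM in untreated cultures (SD, n = 3 each). It was 54.1 without untreated replicate 3, the highest untreated library, and between 25.5 and 35.7 without any other library. On the log2(FPKM + 1) scale used for testing, which understates the change of low genes, Ltb4r2 rose by 3.33 (SE 0.19, limma adjusted p = 9.67e-05). That was rank 11 among the rises of 10106 genes tested. With a pseudocount of 0.1 FPKM the log2 fold change was 4.84. Ltb4r2 reached the abundance filter of 1 FPKM on average only through the GM-CSF libraries, and in the fit without that filter it also rose (limma adjusted p = 0.000493).

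The high-affinity receptor gene Ltb4r1 lies next to Ltb4r2 and was abundant in both groups. It had 85.4, 87.2 and 91.0 FPKM in GM-CSF replicates 1 to 3, against 71.4, 77.6 and 81.8 FPKM in untreated replicates 1 to 3. The groups did not overlap, but the gap between them was small, and 39.2% of all genes tested likewise had groups without overlap. The log2 fold change was 0.19 (SE 0.06, limma adjusted p = 0.0626), which did not pass the threshold of 0.05. It passed under 6 of 20 alternative settings, among them median-of-ratios scaling (limma adjusted p = 0.0129) and the fit without untreated replicate 3 (limma adjusted p = 0.0418). Within a library, Ltb4r2 made up 12.98% ± 2.62 of the summed FPKM of this pair with GM-CSF and 0.509% ± 0.331 in untreated cultures (SD, n = 3 each; p = 0.1 by exact permutation, two-sided, the minimum for this design).

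On GRCm38 the transcript of Ltb4r2 spans chr14:55761428-55763229 and that of Ltb4r1 chr14:55765962-55768494, both on the plus strand, 2732 bp apart, with 2 exons each. Neither transcript shared an exonic base with another GENCODE gene, and none of the 36-base words of either occurred in a transcript of another gene. Adcy4, the next gene after Ltb4r1, lies 562 bp from it on the minus strand. It was below the filter, at 0.216 ± 0.0650 FPKM with GM-CSF and 0.297 ± 0.140 FPKM in untreated cultures (n = 3, SD), with overlapping groups. The genes before the receptor pair also rose, by smaller amounts than Ltb4r2. Cideb, which encodes a lipid droplet protein, starts 2969 bp before Ltb4r2 and is read away from it, on the minus strand. It had 4.33 ± 0.255 FPKM with GM-CSF and 1.98 ± 0.605 FPKM in untreated cultures (n = 3, SD; log2 difference 0.86, SE 0.15, limma adjusted p = 0.00769). Nop9, a ribosome biogenesis gene, had 12.7 ± 0.754 FPKM with GM-CSF and 8.52 ± 0.971 FPKM in untreated cultures (n = 3, SD; log2 difference 0.53, SE 0.09, limma adjusted p = 0.00697). Nop9 and Cideb overlap by 1451 bp on opposite strands. No source used here says whether the authors' counting used strand, so reads of that overlap may have been divided with error. RefSeq gives Ltb4r2 a longer span, chr14:55757922-55764066, with predicted transcripts that had no row in the tables.

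**Figure D2:**
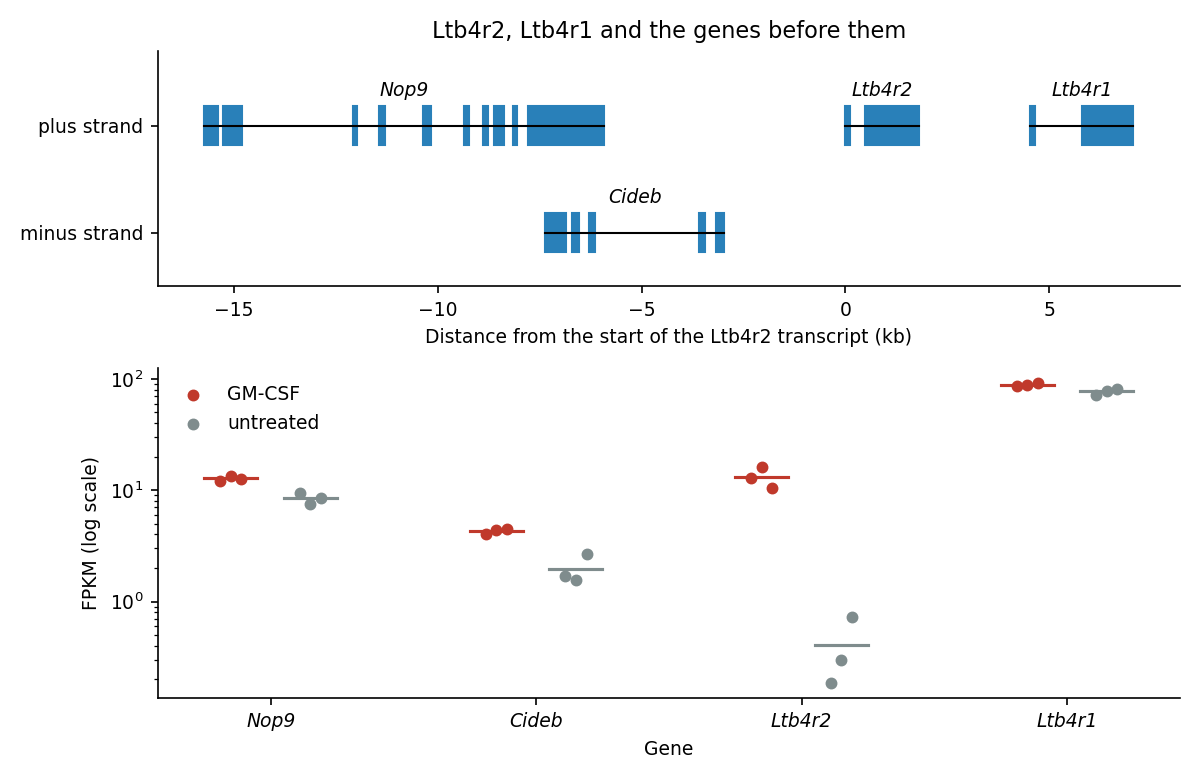
Upper panel, exons of Nop9, Cideb, Ltb4r2 and Ltb4r1 by strand, at their distance in kb from the start of the Ltb4r2 transcript. Lower panel, FPKM of these genes on a log axis in the GM-CSF (red) and untreated (grey) libraries, with group means as lines; Ltb4r2 differs 32.4-fold (54.1-fold without untreated replicate 3), Cideb 2.19-fold, Nop9 1.49-fold and Ltb4r1 1.14-fold between the group means.

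The cysteinyl leukotriene receptor genes were low in all 6 libraries. Cysltr1, whose product is the target of montelukast (chrX:106576509-106603679), had 0.317, 0.565 and 0.568 FPKM in GM-CSF replicates 1 to 3, against 0.0601, 0.0869 and 0.0616 FPKM in untreated replicates 1 to 3. The groups did not overlap, and the lowest GM-CSF library was well above the highest untreated one. The reads behind these values were few, about 20, 53 and 33 with GM-CSF against about 4, 6 and 4 in untreated cultures. Cysltr1 did not reach the abundance filter. Without the filter it rose by 0.47 on the log2 scale with a pseudocount of 1 FPKM (SE 0.07, limma adjusted p = 0.0145) and by 1.75 with a pseudocount of 0.1 FPKM (SE 0.25, limma adjusted p = 0.00786), and the ratio of the means was 6.95. When each library was left out in turn, the call held in 6 of 6 fits with the smaller pseudocount and in 1 of 6 with the larger, where it held without GM-CSF replicate 1 alone and limma adjusted p otherwise lay between 0.0571 and 0.0711. Cysltr2, the second receptor of this class (chr14:73025672-73049114), had 0.0786, 0.300 and 0.142 FPKM with GM-CSF and 0.224, 0.240 and 0.0509 FPKM in untreated cultures. These groups overlapped widely, with as few as 3 reads in a GM-CSF and 2 in an untreated library, and without the filter the log2 fold change was 0.00 (SE 0.09, limma adjusted p = 0.993).

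The complement receptor genes differed in level and in direction. C3ar1, the receptor gene for C3a (chr6:122847140-122856157), had 16.8, 18.3 and 19.996 FPKM in GM-CSF replicates 1 to 3, against 10.7, 10.6 and 12.8 FPKM in untreated replicates 1 to 3. Every GM-CSF library was above every untreated one. The means were 18.3 ± 1.62 FPKM with GM-CSF and 11.3 ± 1.24 FPKM in untreated cultures (SD, n = 3 each), and C3ar1 rose by 0.65 on the log2 scale (SE 0.09, limma adjusted p = 0.00402). C5ar1, the receptor gene for C5a (chr7:16246743-16259540), went the other way at a level below the abundance filter. It had 0.266, 0.394 and 0.289 FPKM in GM-CSF replicates 1 to 3, against 0.824, 0.730 and 1.14 FPKM in untreated replicates 1 to 3. The groups did not overlap, and about 15, 33 and 15 reads lay behind the GM-CSF values against about 49, 45 and 66 behind the untreated ones. In the fit without the filter C5ar1 fell by 0.52 on the log2 scale with a pseudocount of 1 FPKM (SE 0.09, limma adjusted p = 0.0211) and by 1.25 with a pseudocount of 0.1 FPKM (SE 0.24, limma adjusted p = 0.0235).

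With 1 library left out, the log2 fold change of C5ar1 stayed between -0.59 and -0.43 at a pseudocount of 1 FPKM and between -1.38 and -1.08 at 0.1 FPKM, but its call was often lost. At 1 FPKM it was kept without untreated replicate 2 or 3 and lost without any other library (limma adjusted p between 0.0565 and 0.0884). At 0.1 FPKM it was kept only without GM-CSF replicate 2. In the same fits without the filter, C3ar1 lost its call without GM-CSF replicate 2 (limma adjusted p = 0.0529), untreated replicate 1 (0.0581) or untreated replicate 2 (0.0591) at a pseudocount of 1 FPKM, and in 4 of 6 fits at 0.1 FPKM (limma adjusted p up to 0.0606), while with the filter it passed in all 6. C3ar1 made up 98.3% ± 0.363 of the summed FPKM of this pair with GM-CSF and 92.7% ± 0.870 in untreated cultures (SD, n = 3 each; p = 0.1 by exact permutation, two-sided, the minimum for this design). C5ar2, which encodes a second C5a receptor and lies 2588 bp from C5ar1, had 0.800 ± 0.0456 FPKM with GM-CSF and 0.877 ± 0.0617 FPKM in untreated cultures (SD, n = 3 each; limma without the filter, adjusted p = 0.613). C5ar1 has a second transcript in the tables, which was listed at under 0.001 FPKM in every library.

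The 250 bases upstream of the start that RefSeq lists for C3ar1 and C5ar1, which for C5ar1 lies inside the span given above, are shown. Both windows were chosen for display after the changes were seen. They come from RefSeq on GRCm38.p6 and run 5′ to 3′ on the minus strand. Neither the STAT palindrome TTCNNNGAA, to which STAT5 binds, nor GAGGAA, the core of PU.1 sites, was found in either window on either strand, so no base is in capitals. Of 27025 mouse promoter windows of this length, 7.18% held TTCNNNGAA and 23.1% held GAGGAA.
C3ar1, chr6:122856158-122856407: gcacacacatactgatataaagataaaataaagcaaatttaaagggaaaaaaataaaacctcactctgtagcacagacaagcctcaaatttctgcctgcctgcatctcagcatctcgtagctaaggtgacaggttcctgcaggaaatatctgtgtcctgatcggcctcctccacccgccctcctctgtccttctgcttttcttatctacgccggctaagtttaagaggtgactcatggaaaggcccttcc
C5ar1, chr7:16259339-16259588: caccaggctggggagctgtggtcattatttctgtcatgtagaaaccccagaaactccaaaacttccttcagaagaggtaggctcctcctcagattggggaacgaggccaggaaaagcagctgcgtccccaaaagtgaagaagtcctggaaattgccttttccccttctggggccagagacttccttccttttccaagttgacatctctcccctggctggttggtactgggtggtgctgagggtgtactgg

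Of the formyl peptide receptor genes, Fpr2 was the abundant one. Its product binds formyl peptides and, among other ligands, annexin A1 and lipoxin. Fpr2 had 9.11, 11.2 and 11.5 FPKM in GM-CSF replicates 1 to 3, against 5.82, 5.29 and 5.82 FPKM in untreated replicates 1 to 3. Every GM-CSF library was above every untreated one. The group means were 10.6 ± 1.30 FPKM with GM-CSF and 5.64 ± 0.308 FPKM in untreated cultures (SD, n = 3 each), and Fpr2 rose by 0.80 on the log2 scale (SE 0.10, limma adjusted p = 0.00191). Fpr1, which encodes a receptor for bacterial formyl peptides such as fMLF, had 0.812, 0.170 and 0.340 FPKM with GM-CSF and 0.616, 0.198 and 1.18 FPKM in untreated cultures. The libraries of both groups were scattered and overlapped, and without the filter the log2 fold change was -0.19 (SE 0.26, limma adjusted p = 0.726).

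The formyl peptide receptor genes lie close together on chromosome 17 and are similar in sequence, so their reads may have been divided with error. Fpr3 overlaps Fpr2 on the same strand, and 12 of the 1133 exonic bases of the Fpr2 transcript lie in exons of Fpr3. These bases and the words below are from the GENCODE transcript, whereas the Fpr2 transcript that the authors quantified was 1296 nt long. Fpr2 spans chr17:17887824-17893952 and Fpr1 chr17:17876471-17883939. Of the 1098 words of 36 bases in the Fpr2 transcript, 446 also occurred in the pseudogene Gm5966, 131 in Fpr3 and 15 in Fpr1, and 44.8% occurred in at least 1 of them. In Fpr1 15 of 1289 words (1.16%) were shared. The longest identical stretches of the Fpr2 coding sequence are shown to make this visible, from GENCODE M21 transcripts, on the plus strand of chromosome 17. The match to Fpr3 covers 94 bases, at positions 217 to 310 of both coding sequences, and the match to Fpr1 covers 50 bases, at positions 373 to 422 of Fpr2. Reads of 36 bases from inside these stretches fit both genes.
Fpr2 and Fpr3: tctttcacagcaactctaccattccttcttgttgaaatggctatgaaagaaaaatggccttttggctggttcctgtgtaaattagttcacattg
Fpr2 and Fpr1: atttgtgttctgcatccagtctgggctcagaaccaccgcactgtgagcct

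Fpr3, another member of this family, had 0.522 ± 0.143 FPKM with GM-CSF and 0.198 ± 0.142 FPKM in untreated cultures (SD, n = 3 each; limma without the filter, adjusted p = 0.119). The sum of Fpr1, Fpr2 and Fpr3 was 10.6, 11.7 and 12.4 FPKM in GM-CSF replicates 1 to 3, against 6.77, 5.54 and 7.20 FPKM in untreated replicates 1 to 3 (ratio of means 1.78; p = 0.1 by exact permutation, two-sided, the minimum for this design). The pseudogene Gm5966, which shares the most words with Fpr2, had no row in the tables, and its part and that of reads divided among genes of different length were not tested.

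The windows upstream of Fpr2 and Ltb4r1 are also shown, again chosen for display after the changes were seen. Windows of 7 receptor genes were searched. Ltb4r2 and Cysltr1 had no entry in the RefSeq promoter table, and the window of Hrh4 was left out of the search. Among the 7, TTCNNNGAA occurred in Fpr2 alone, from 77 to 69 bases before the start. GAGGAA occurred in 3, namely Fpr2, Ltb4r1 and Ptafr, each on the strand opposite to the gene. Over 27025 mouse promoter windows of this length, 7.18% held TTCNNNGAA and 23.1% held GAGGAA. The 7 windows are too few to compare with these shares. Capitals mark the matches, and TTCCTC is GAGGAA read on the other strand. Both windows are on the plus strand and run 5′ to 3′. The C3ar1 and C5ar1 windows shown above held neither motif. A match is a description of the letters and not evidence of binding. Whether a motif bears on any change was not tested, and Ltb4r2, which changed most, had no window.
Fpr2, chr17:17887574-17887823: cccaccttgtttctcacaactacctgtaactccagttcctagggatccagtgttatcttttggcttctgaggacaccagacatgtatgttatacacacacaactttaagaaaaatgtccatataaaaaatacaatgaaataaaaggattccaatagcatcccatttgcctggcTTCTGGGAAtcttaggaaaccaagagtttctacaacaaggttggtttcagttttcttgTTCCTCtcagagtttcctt
Ltb4r1, chr14:55765712-55765961: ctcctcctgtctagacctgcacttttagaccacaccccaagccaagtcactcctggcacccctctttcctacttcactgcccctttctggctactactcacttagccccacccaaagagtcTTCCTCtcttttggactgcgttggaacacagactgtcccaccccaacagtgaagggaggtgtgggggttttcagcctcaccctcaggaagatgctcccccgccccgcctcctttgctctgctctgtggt

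Ptafr, which encodes the receptor for the lipid platelet-activating factor (chr4:132564067-132582683), was the highest of the 10 genes. It had 419.0, 386.4 and 421.9 FPKM in GM-CSF replicates 1 to 3, against 418.7, 394.8 and 426.8 FPKM in untreated replicates 1 to 3. The groups overlapped almost completely. The log2 fold change was -0.02 (SE 0.05, limma adjusted p = 0.874), and its sign turned under 3 other scalings, where it lay between 0.03 and 0.06. Hrh4, the histamine receptor gene known for chemotaxis of human eosinophils, had 0.454, 0.102 and 0.461 FPKM with GM-CSF and 0.230, 0.249 and 0.0883 FPKM in untreated cultures. These groups overlapped, with between 5 and 15 reads behind a GM-CSF and between 3 and 9 behind an untreated library, and without the filter the log2 fold change was 0.16 (SE 0.13, limma adjusted p = 0.542).

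Of the 10 receptor genes, 5 reached the filter, and 3 of these rose, 0 fell and 2 did not pass. Over all genes tested 21.9% passed, 7.68% rising and 14.2% falling, a split that became 1080 rises and 968 falls with median-of-ratios scaling, against 776 and 1436 as deposited. The count over the 5 genes carries the selection described for Ltb4r2. Without the filter all 10 were tested, and 4 rose (Ltb4r2, Cysltr1, C3ar1 and Fpr2), 1 fell (C5ar1) and 5 did not pass, where 4.12% of 17828 genes rose and 6.8% fell. The same 5 passed with a pseudocount of 0.1 FPKM, where 4.08% rose and 6.86% fell. In 6 of the 10 genes (Ltb4r1, Ltb4r2, C3ar1, Fpr2, Cysltr1 and C5ar1) the groups did not overlap, as in 27.7% of the 17828 genes. Among the 7722 genes under the filter 12.7% had groups without overlap and 1.86% passed with a pseudocount of 0.1 FPKM, as Cysltr1 and C5ar1 did in both respects.

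**Figure D3:**
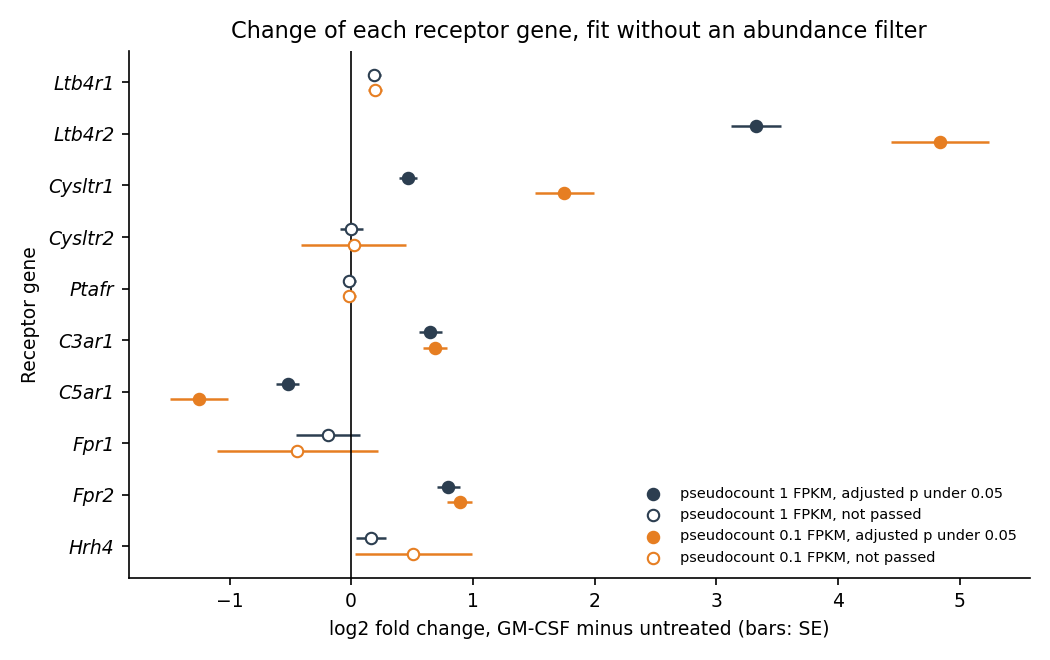
log2 fold change of each receptor gene, GM-CSF minus untreated, in fits over 17828 genes with no abundance filter, at a pseudocount of 1 FPKM (dark) and 0.1 FPKM (orange); bars are SE and filled points have a limma adjusted p under 0.05. Ltb4r2, Cysltr1, C3ar1 and Fpr2 lie to the right of 0 and C5ar1 to the left with filled points at both settings.

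Genes that make and break down leukotrienes moved in both directions. Of 12 tested among 14 listed, 3 rose, 3 fell and 6 did not pass, where 21.9% of all genes tested passed, 7.68% rising and 14.2% falling. The median log2 fold change was -0.02, against -0.05 over all genes tested. The same shares stand behind the counts of the other lists. Pla2g4a, the phospholipase that frees arachidonic acid, had 37.4 ± 3.78 FPKM with GM-CSF and 19.0 ± 0.449 FPKM in untreated cultures (n = 3, SD; log2 difference 0.93, SE 0.07, limma adjusted p = 0.000328). Alox5, the 5-lipoxygenase gene, had 265.0 ± 11.1 FPKM with GM-CSF and 202.9 ± 12.4 FPKM in untreated cultures (n = 3, SD; log2 difference 0.38, SE 0.06, limma adjusted p = 0.00437). The gene of its activating protein, Alox5ap, had 319.0 ± 19.1 FPKM with GM-CSF and 396.4 ± 12.4 FPKM in untreated cultures (n = 3, SD; log2 difference -0.31, SE 0.05, limma adjusted p = 0.00810). The Alox5ap call ended with quantile normalization (limma adjusted p = 0.0569). With median-of-ratios scaling 2 genes of this list fell. With quantile normalization 1 fell, as with rescaling to 1 sum, while 3 rose under each of these scalings. The others that passed were chosen after their values were seen. Ltc4s, the leukotriene C4 synthase gene, had a log2 fold change of 0.30 (limma adjusted p = 0.0457). Lta4h, whose enzyme makes leukotriene B4, had -0.24 (limma adjusted p = 0.0166). The dipeptidase gene Dpep2 also had -0.24 (limma adjusted p = 0.0372). With rescaling to 1 sum the only faller was Alox5ap, so the Lta4h and Dpep2 calls ended there.

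Of 7 genes tested among 8 listed for platelet-activating factor metabolism, 1 rose, 2 fell and 4 did not pass (median log2 fold change 0.02). The riser was again Pla2g4a. Lpcat2, whose enzyme makes the factor in activated leukocytes, had 92.0 ± 2.89 FPKM with GM-CSF and 114.8 ± 3.69 FPKM in untreated cultures (n = 3, SD; log2 difference -0.32, SE 0.04, limma adjusted p = 0.00308). Pla2g7, which encodes the secreted acetylhydrolase that inactivates it, was very abundant, at 2426 ± 123.9 FPKM with GM-CSF and 2841 ± 73.8 FPKM in untreated cultures (n = 3, SD; log2 difference -0.23, SE 0.05, limma adjusted p = 0.0238). The Pla2g7 call ended in 5 of 6 fits with 1 library left out, all but that without GM-CSF replicate 3, and under all 3 other scalings, with limma adjusted p up to 0.411.

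Hdc, the histidine decarboxylase gene that makes histamine, had 144.0 ± 11.9 FPKM with GM-CSF and 249.6 ± 36.01 FPKM in untreated cultures (n = 3, SD; log2 difference -0.78, SE 0.11, limma adjusted p = 0.00411). It was the 1 gene that fell among 2 tested for histamine metabolism, and the other, Hnmt, did not pass (log2 fold change -0.37). Of 7 genes tested among 21 complement proteins and regulators, 1 rose, 1 fell and 5 did not pass (median log2 fold change -0.04). The complement component gene C4b had 3.89 ± 0.107 FPKM with GM-CSF and 2.29 ± 0.112 FPKM in untreated cultures (n = 3, SD; log2 difference 0.57, SE 0.07, limma adjusted p = 0.00213). Cd55, which encodes decay-accelerating factor, had 2.23 ± 0.395 FPKM with GM-CSF and 4.08 ± 0.228 FPKM in untreated cultures (n = 3, SD; log2 difference -0.66, SE 0.11, limma adjusted p = 0.00623). The genes of the anaphylatoxin precursors, C3 and Hc, were under 1 FPKM on average. Among formyl peptide receptor relatives and peptide ligands Anxa1, the annexin A1 gene, alone was tested, at 6.94 ± 0.739 FPKM with GM-CSF and 7.85 ± 2.02 FPKM in untreated cultures (SD, n = 3 each; limma adjusted p = 0.633).

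Several genes that end receptor signalling fell. Of 12 tested among 13 listed for receptor desensitization, 0 rose, 7 fell and 5 did not pass, where 7.68% of all genes tested rose and 14.2% fell. The median log2 fold change was -0.32, against -0.05 over all genes tested, and 6 genes fell under each of the 3 other scalings. Rgs2, a regulator that speeds GTP hydrolysis by Gq, had 132.7 ± 6.72 FPKM with GM-CSF and 232.8 ± 24.95 FPKM in untreated cultures (n = 3, SD; log2 difference -0.80, SE 0.08, limma adjusted p = 0.00102). Rgs1, which acts on Gi and Gq, had 417.5 ± 40.5 FPKM with GM-CSF and 639.0 ± 73.1 FPKM in untreated cultures (n = 3, SD; log2 difference -0.61, SE 0.11, limma adjusted p = 0.00800). Rgs10 had 89.5 ± 0.383 FPKM with GM-CSF and 129.1 ± 11.0 FPKM in untreated cultures (n = 3, SD; log2 difference -0.52, SE 0.06, limma adjusted p = 0.00225). The arrestin gene Arrb2 (log2 fold change -0.38), the kinase gene Grk6 (-0.38), Rgs3 (-0.35) and Rgs14 (-0.15) were the others that fell, chosen after their values were seen.

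Of 20 G protein effector genes, all tested, 2 rose, 6 fell and 12 did not pass (median log2 fold change -0.03). The Gi subunit gene Gnai2, through which these receptors signal in granulocytes, had a log2 fold change of 0.03 (limma adjusted p = 0.747) and was chosen after its value was seen. The G protein gamma subunit gene Gng2 had 14.8 ± 1.83 FPKM with GM-CSF and 27.1 ± 1.52 FPKM in untreated cultures (n = 3, SD; log2 difference -0.84, SE 0.09, limma adjusted p = 0.00149). The phospholipase gene Plcb2 fell by 0.50 on the log2 scale (limma adjusted p = 0.000441), and Gnaq rose by 0.35 (limma adjusted p = 0.0129). Of 8 other chemoattractant receptor genes tested among 9 listed, 2 rose, 1 fell and 5 did not pass (median log2 fold change -0.25). Cxcr2, the receptor gene for ELR chemokines, had 109.3 ± 8.88 FPKM with GM-CSF and 23.8 ± 0.672 FPKM in untreated cultures (n = 3, SD; log2 difference 2.15, SE 0.06, limma adjusted p = 7.78e-06). Ccr1, a receptor gene for CC chemokines, had 194.2 ± 6.97 FPKM with GM-CSF and 135.8 ± 1.1 FPKM in untreated cultures (n = 3, SD; log2 difference 0.51, SE 0.04, limma adjusted p = 0.000275). Cxcr4 fell by 0.66 on the log2 scale (limma adjusted p = 0.000118).

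**Figure D4:**
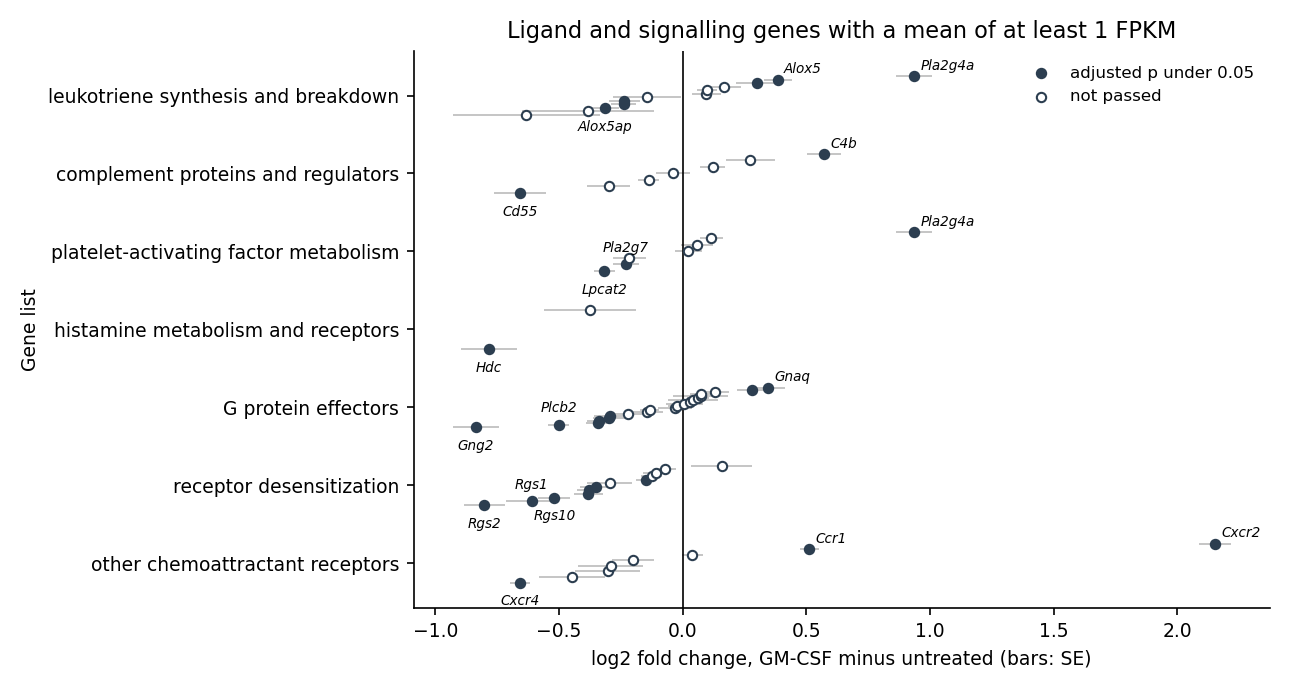
log2 fold change, GM-CSF minus untreated, of genes averaging 1 FPKM or more in 7 lists around the receptors, with 1 point per gene, bars for SE and filled points for a limma adjusted p under 0.05. In the receptor desensitization row 7 of 12 points are filled and all 7 lie left of 0.

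Markers of other leukocytes, which carry several of these receptors, were measured beside them. In bulk RNA, fewer cells of a type and less RNA per cell cannot be told apart. The eosinophil markers themselves summed to between 562 and 647 FPKM with GM-CSF and between 905 and 1047 FPKM in untreated cultures, and of the 6 tested 0 rose, 3 fell (Alox15, Il5ra and Epx) and 3 did not pass. Most of the difference in the sum was Alox15, at 157.0 FPKM with GM-CSF and 460.6 FPKM in untreated cultures, while Siglec5 had 170.4 FPKM with GM-CSF and 170.1 FPKM in untreated cultures. The Epx call ended in 5 of 6 fits with 1 library left out, all but that without GM-CSF replicate 1 (limma adjusted p up to 0.122), and with rescaling to 1 sum (0.0546). Of 8 neutrophil markers matched among 9 listed, Camp and Elane were at 0 in every library and Mpo and Ltf were under 1 FPKM on average. Their summed level was between 1042 and 1051 FPKM with GM-CSF and between 1346 and 1461 FPKM in untreated cultures, most of it Retnlg, at 998.6 ± 12.3 FPKM with GM-CSF and 1344 ± 60.2 FPKM in untreated cultures (SD, n = 3 each), and S100a8 also fell (log2 fold change -0.77, limma adjusted p = 0.00212). Of 4 neutrophil markers tested, 0 rose, 2 fell and 2 did not pass.

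Of 10 macrophage and dendritic cell markers, 6 were tested, of which 0 rose and 3 fell. The summed level of the 10 was between 963 and 1036 FPKM with GM-CSF and between 920.4 and 990.4 FPKM in untreated cultures. Most of it was Itgax and Emr1. Itgax had 430.7 FPKM with GM-CSF and 449.8 FPKM in untreated cultures. Emr1 had 426.4 FPKM with GM-CSF and 367.8 FPKM in untreated cultures. Which cells carried these transcripts was not tested. Csf1r fell (log2 fold change -0.86), as did Apoe (-0.63) and Lyz2 (-0.42), whereas the log2 fold change was 0.21 for Emr1, 0.09 for Cd68 and -0.06 for Itgax, which did not pass. The Lyz2 call (limma adjusted p = 0.0446) ended in 4 of 6 fits with 1 library left out (limma adjusted p up to 0.127) and under all 3 other scalings. The Csf1r and Apoe calls held in all of these. Under the 3 other scalings 2 fell, and 1 rose with median-of-ratios scaling. C1qa, C1qb, Mertk and Flt3 were under 1 FPKM on average. Mast cell and basophil markers summed to between 12.4 and 15.4 FPKM with GM-CSF and between 14.8 and 26.0 FPKM in untreated cultures, with Mcpt8 and Tpsb2 at 0 throughout, and 2 of 4 tested fell, or 1 of 4 with median-of-ratios scaling or rescaling to 1 sum. Of the B and plasma cell, T cell and epithelial markers, 5 of 5, 4 of 4 and 4 of 7 tested fell and 0 rose, where 14.2% of all genes tested fell. Mzb1, at 0.725 FPKM with GM-CSF and 2.01 FPKM in untreated cultures, reached the filter only through the untreated libraries. The B and plasma cell count carries that selection. With median-of-ratios scaling 4 of 5 B and plasma cell markers fell and with quantile normalization 3 of 5, and 3 of 4 T cell markers fell under each of the 3 other scalings. With 1 library left out, the Igj call ended in 5 of 6 fits and the Mzb1 and Krt8 calls in 4 of 6 each. The calls of Cd79b, Cd3e, Cd3g, Lck, Krt19 and Lgals4 held in all 6. The B and plasma cell sum was between 16.1 and 17.5 FPKM with GM-CSF and between 30.7 and 38.0 FPKM in untreated cultures. The T cell sum was between 14.6 and 17.1 FPKM with GM-CSF and between 26.9 and 27.996 FPKM in untreated cultures. The epithelial sum was between 55.5 and 68.0 FPKM with GM-CSF and between 82.2 and 89.1 FPKM in untreated cultures. The part of other cells in the receptor changes was not tested.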

How the data were processed

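Trizol RNA of 6 eosinophil cultures went into TruSeq stranded mRNA libraries, according to the labels' protocols. Per the submitters' processing notes, bcl2fastq 1.8.4, TopHat, TopHat2, Cufflinks and build mm10 were used, with no order or settings given. The authors deposited 1 table of 30374 RefSeq transcripts per library, with FPKM and coverage per the file headers. Read counts are not among the columns, so count models were not used. FPKM were summed per gene symbol, and the 10106 genes averaging 1 FPKM or more were tested on log2(FPKM + 1) with limma 3.58.1 in R 4.3.3 (group only, trend, two-sided, Benjamini-Hochberg adjustment over all genes, threshold 0.05). This fit was tested on simulated data with normal errors and with changes added to the more abundant genes only. The simulation did not cover the fits without the filter or with other pseudocounts. Approximate reads were taken from the deposited coverage signal times the length less 200 nt, divided by 36 nt. These values, inferred from the files, brought between 72.5% and 74.5% of low transcripts per library to within 0.1 of a whole number, against between 17.5% and 20.3% without the length correction. Positions and promoters come from RefSeq and GENCODE M21 on GRCm38, the build named mm10. Receptor genes and lists were chosen with earlier results of these data known. All receptors are named, and from each list up to 3 genes that passed, by size of change, or, where none did, the 2 highest in level. Of the list entries, 145 matched by symbol, 6 by an older symbol and 2 (Ly6g and Fpr-rs7) were not matched. A gene first listed among the other chemoattractant receptors is not reported here.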

Additional observations from a re-analysis of the deposited data

How the results depend on the processing

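The number of genes changed was 2212 and lay between 1510 and 2455 under 20 alternatives, all within 1.5 times, and between 1510 and 1776 with 1 library left out. Of the receptor genes, 3 passed, and 5 passed without the abundance filter, both at a pseudocount of 1 FPKM (5) and at 0.1 FPKM (5), a combination with no filter that was chosen after seeing the data, because 5 more genes were tested. With 1 library left out, 3 or 4 passed. Ltb4r2 (log2 fold change between 3.18 and 4.84), Fpr2 (between 0.74 and 0.89) and C3ar1 (between 0.59 and 0.73) passed under all 20. Ltb4r1 did not pass as reported and passed with median-of-ratios scaling, rescaling to 1 sum (limma adjusted p = 0.0497), robust variances (0.0403), leaving out genes whose transcripts are all under 200 nt (0.0380), the replicate block (0.0385) and without untreated replicate 3; the cause was not tested. Ptafr, which passed nowhere, changed sign with median-of-ratios scaling (log2 fold change 0.058), quantile normalization (0.033) and rescaling to 1 sum (0.032), and lay between -0.048 and 0.025 with 1 library left out. The replicate numbers are not said to mark a shared animal or day. Deviations of same-numbered libraries correlated at -0.03, 0.05 and -0.02, which cannot decide whether the samples were paired. With the replicate block 1996 genes and 4 receptor genes passed. Cysltr1, Cysltr2, C5ar1, Fpr1 and Hrh4 rested on at most 66 reads in any library, and Ltb4r2 on at most 23 in an untreated library, so counting error is large in these values.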
